A study of Mus musculus with 6 samples.

Results

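The elastic fibre and lysyl oxidase genes described here are 10 of the 30438 genes in the count table: the fibrillin Fbn1, elastin (Eln), the fibulins Fbln1, Fbln2 and Fbln5, and the lysyl oxidases Lox, Loxl1, Loxl2, Loxl3 and Loxl4. They were taken by gene symbol, and the set was chosen by its fold changes between the groups compared here, since some members rose and others fell. The values between groups are therefore a description and no test of the set. RNA came from HEI-OC1, a line made from the organ of Corti of a mouse carrying a conditional immortalising gene, which the labels call a cochlear stem cell. The groups were 3 libraries of wild-type HEI-OC1 (control) and 3 libraries of HEI-OC1 labelled as Nrf2 knockout. Both groups were grown in DMEM with 10% serum at 33 °C and 10% CO2, and no drug is named in the labels. The submitters ask how loss of Nrf2, the transcription factor of the antioxidant response, raises resistance to cisplatin. How the knockout was made, and whether it is 1 clone or a pool, is not stated in the labels.

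Elastic fibres give a matrix its recoil. Fibrillin-1 monomers assemble into microfibrils, tropoelastin is deposited on them with the help of fibulins, and copper-dependent lysyl oxidases oxidise lysines so that elastin and collagen chains become cross-linked. Microfibrils also hold latent TGF-beta through its binding proteins. In the cochlea, fibrous matrix lies in the basilar membrane and the spiral ligament.

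The libraries held 29130007 to 51285343 counts. The library labelled Nrf2 KO replicate 1 stood apart: 57.0% of the 14618 tested genes lay more than 1.5-fold from the mean of the other 2 libraries of its group, against 21.8% for control replicate 1. Nfe2l2, which encodes NRF2, was higher in the libraries labelled Nrf2 KO (278.6 ± 102.6 against 99.1 ± 26.2 CPM, read counts scaled to the effective library size; SD, n = 3 each), so its RNA goes against the label and each direction below is that of the labelled libraries. Whole-gene counts cannot show whether a small edit is present. Of 10 hair cell markers, Atoh1, Slc26a5, Pvalb and Tmc1 had 0 counts in all 6 libraries, and so had Sox2 and Sox10 of 10 supporting cell and prosensory markers. The labels do not say that replicates were separate cultures, so the spread between them may be technical.

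RefSeq promoter windows of the mouse build GRCm38.p6 were matched for 5 of the 10 genes. Those of Fbn1 and Loxl4 are shown because these genes had the largest rise and the largest fall among members above 5 CPM in the control libraries, a choice made after their values were seen. Each sequence is the 250 bases before the annotated start, 5′ to 3′ on the gene's strand, with GC boxes in capitals. The coordinates are those of the RefSeq table and not of the build in the submitters' notes. The window of Fbn1 is chr2:125506439-125506688 (minus strand) and that of Loxl4 is chr19:42612807-42613056 (minus strand).
Fbn1: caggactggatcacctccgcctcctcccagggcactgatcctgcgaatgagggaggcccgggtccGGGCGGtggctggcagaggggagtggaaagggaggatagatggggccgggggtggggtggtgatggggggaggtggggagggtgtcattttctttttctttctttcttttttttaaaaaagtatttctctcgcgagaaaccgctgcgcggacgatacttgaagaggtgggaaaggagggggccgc
Loxl4: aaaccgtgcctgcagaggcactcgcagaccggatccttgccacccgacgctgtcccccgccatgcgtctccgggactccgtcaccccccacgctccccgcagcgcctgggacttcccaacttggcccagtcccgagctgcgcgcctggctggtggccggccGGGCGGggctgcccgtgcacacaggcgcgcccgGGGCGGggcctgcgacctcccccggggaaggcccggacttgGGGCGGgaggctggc

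Of the 5 motifs searched on both strands, the windows held only the GC box (GGGCGG), present in 32.7% of all 32851 windows of this length. Fbn1 had 1, beginning 185 bases before the start, and Loxl4 had 3, at 89, 56 and 15 bases. The other motifs had no match in either window: the antioxidant response element core TGACNNNGC, which NRF2 binds with small MAF proteins (10.2% of all windows), the AP-1 site TGANTCA (6.75%), the TEAD site GGAATG (12.6%) and the TATA box TATAAA (12.4%). The Loxl4 window was 76.0% G and C with 27 CpG, that of Fbn1 59.2% with 13, beside medians of 52.4% and 6 over all windows. The windows of Fbln1, Fbln2 and Fbln5 also held no match to the antioxidant response element core.

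The microfibril protein and the elastic core went opposite ways. Fbn1, whose product fibrillin-1 is the backbone of microfibrils, was at 9.57, 11.4 and 12.0 CPM in control replicates 1, 2 and 3, against 43.5, 71.7 and 60.8 CPM in the KO-labelled libraries. Every labelled library lay above every control library, and the lowest of them was replicate 1. The fitted difference was a log2 fold change of 2.42 (SE 0.23), or 5.34-fold. Eln, which encodes tropoelastin, was at 1.89, 1.91 and 2.22 CPM in the controls, against 0.415, 0.468 and 0.243 CPM in the KO-labelled libraries. The groups did not overlap, with a log2 fold change of -2.41 (SE 0.34). These levels rest on few reads: 74, 85 and 86 counts of Eln against 13, 23 and 10.

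Comparing genes needs levels per length, and the result depends on the lengths used. The authors' deposited table gives Fbn1 an FPKM of 0.914 in the control group and 5.07 in the group labelled Nrf2 KO. It gives Eln 0.458 and 0.0832. The ratio of Fbn1 to Eln in that table was thus 2.00 in the control group and 60.9 in the labelled group. Both genes were below the median FPKM of the tested genes in each group (7.02 and 7.44), and Eln ranked 14111th of 14618 in the labelled group.

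The 3 fibulins, which bridge elastin, microfibrils and cells, were near the limit of detection in both groups. Fbln1 had 9, 18 and 10 counts in the controls, against 4, 22 and 18 in the KO-labelled libraries. Fbln5, which binds elastin and Loxl1 and helps to place both on microfibrils, had 9, 18 and 26 counts against 9, 14 and 12. For both genes the groups overlapped, with log2 fold changes of 0.21 (SE 0.53) and -0.59 (SE 0.45). Fbln2 had 0, 2 and 2 counts against 0, 2 and 0, did not pass the count filter, and is given no fold. A difference in the fibulins was not detectable at this depth.

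**Figure D1:**
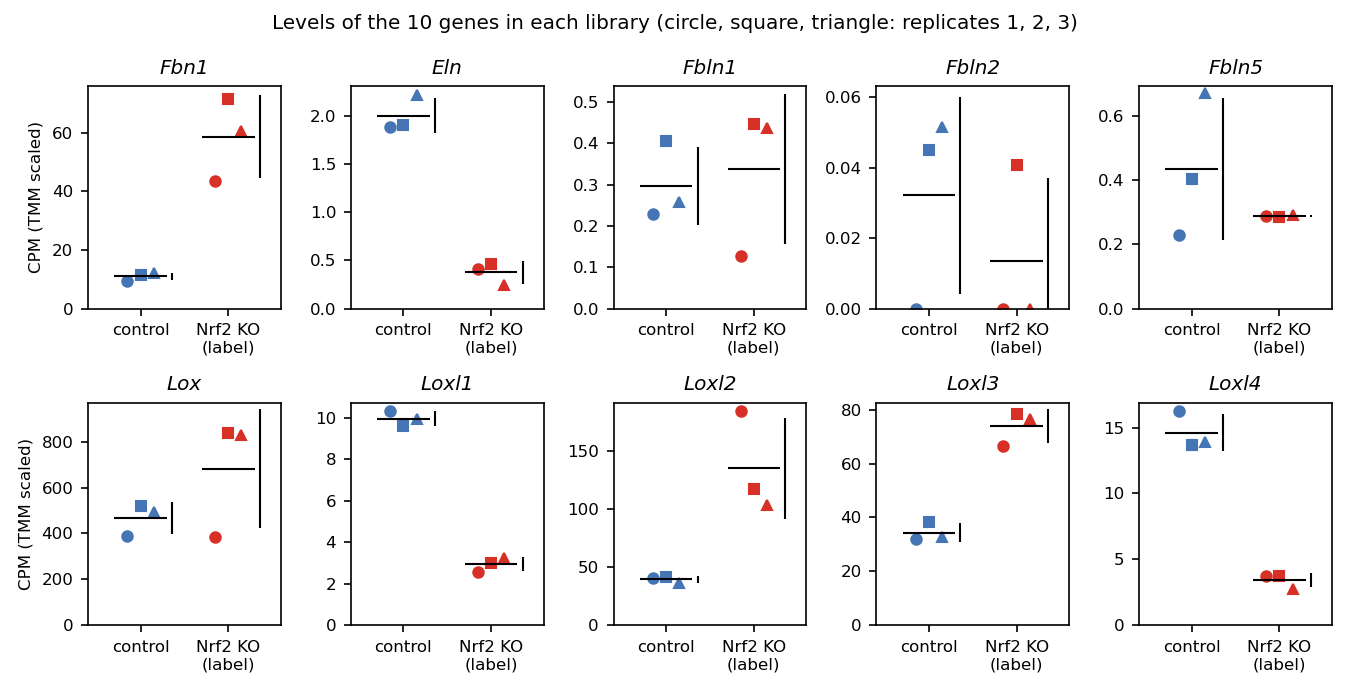
Level of each of the 10 genes in CPM (y axis, a separate linear scale from 0 for each gene) in the 3 control libraries and the 3 labelled Nrf2 KO; points are libraries, horizontal lines means and vertical lines 1 SD. Fbn1, Loxl2 and Loxl3 are higher and Eln, Loxl1 and Loxl4 lower in every labelled library, while Lox and the fibulins overlap. How often the groups lie apart among all tested genes was not computed.

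The lysyl oxidases split by direction. Loxl2 and Loxl3 were higher, Loxl1 and Loxl4 lower, and the most abundant of them, Lox, overlapped between the groups. By structure Lox and Loxl1 form one branch of the family, with propeptides that are cut off outside the cell, and Loxl2, Loxl3 and Loxl4 the other, with scavenger receptor domains. Each branch thus held a member that was lower in the labelled libraries, and Loxl4 went opposite to the other 2 of its branch.

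Lox, the founding enzyme for collagen and elastin cross-links, was at 389.8, 518.4 and 494.8 CPM in the controls, against 383.2, 838.2 and 830.6 CPM in the KO-labelled libraries. Replicate 1 of the labelled group lay below all control libraries and the other 2 above them, at a log2 fold change of 0.55 (SE 0.34) over all 6 libraries, or 0.83 when Nrf2 KO replicate 1 was left out. Loxl2, a cross-linker of collagen IV and other matrix proteins, was at 41.0, 41.5 and 36.2 CPM against 184.9, 117.7 and 103.5 CPM. Here replicate 1 was the highest of the labelled libraries, the reverse of its place for Lox. All 3 stood above the controls, and the log2 fold change of 1.77 (SE 0.25) was 1.48 without that library.

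Loxl3, needed for palate and spine formation, was at 32.0, 38.3 and 32.9 CPM in the controls, against 66.6, 78.3 and 76.7 CPM in the KO-labelled libraries. The groups were apart and the spread within each was small, with a log2 fold change of 1.10 (SE 0.15). In the mouse annotation GENCODE M21, Loxl3 overlaps Htra2 on the other strand, and the sources used here do not state the strand setting, so reads of the pair cannot be separated. Htra2 was counted at 81.2 ± 17.3 CPM in the control and 102.1 ± 47.5 in the labelled libraries (SD, n = 3 each). Fbn1, Eln, Lox and Loxl2 also overlap an annotated gene there, none of which is named in the count table. The counts carry rat-style symbols, so an absent mouse name does not show whether such a gene was counted.

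Loxl1, which acts on elastin, was at 10.3, 9.60 and 9.93 CPM in the controls, against 2.55, 2.99 and 3.23 CPM in the KO-labelled libraries. Its replicates were close together in both groups, and the log2 fold change was -1.76 (SE 0.20), 3.40-fold lower. Loxl4 was at 16.2, 13.7 and 13.9 CPM against 3.70, 3.69 and 2.77 CPM, a log2 fold change of -2.11 (SE 0.21), 4.31-fold lower. Neither gene overlapped between the groups. Labelled replicate 1 lay within 1.5-fold of the mean of the other 2 labelled libraries for Loxl1, Loxl3, Loxl4 and Eln. Its ratio to that mean was 0.820, 0.859, 1.15 and 1.17, against 0.459 for Lox, 0.657 for Fbn1 and 1.67 for Loxl2. It was still the lowest labelled library for Loxl1 and Loxl3.

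**Figure D2:**
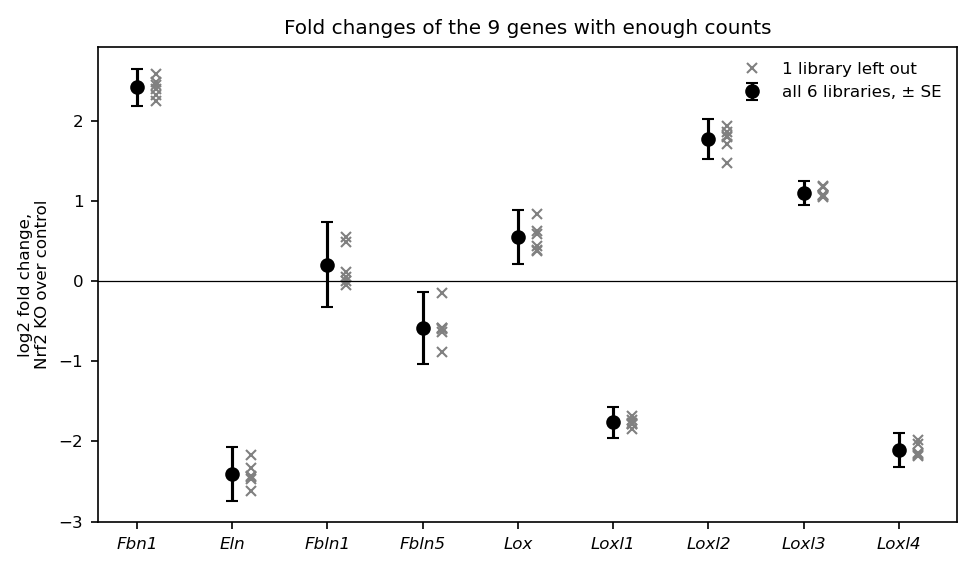
Log2 fold change, KO-labelled over control (y axis) for the 9 genes with enough counts; circles with bars are the fit to all 6 libraries ± SE and crosses the 6 fits with 1 library left out. The crosses of Fbn1, Loxl2, Loxl3 and Lox stay above 0 and those of Eln, Loxl1, Loxl4 and Fbln5 below it, while those of Fbln1 lie on both sides.

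The make-up of the lysyl oxidase transcripts was compared per length. In the authors' deposited table the 5 genes summed to an FPKM of 108.5 in the control group and 185.6 in the group labelled Nrf2 KO. The order was Lox (78.4), Loxl2 (14.9), Loxl3 (9.75), Loxl1 (3.33) and Loxl4 (2.11) in the control group. The order was the same in the labelled group, with authors' FPKM of 112.5, 50.7, 20.9, 0.961 and 0.483. Loxl1 and Loxl4 together made up 5.01% of the control sum and 0.778% of the labelled one, and Loxl2 went from 13.7% to 27.3%.

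Shares in each library were computed from the CPM with the gene length that the authors' FPKM imply. Loxl1 took 3.60%, 2.69% and 2.97% in the controls, against 0.553%, 0.478% and 0.534% in the KO-labelled libraries. The share of Loxl4 was 2.43%, 1.65% and 1.79% against 0.346%, 0.254% and 0.197%. Both shares were lower in all labelled libraries. Loxl2 took 16.0%, 13.1% and 12.1% against 44.9%, 21.1% and 19.2%, so the labelled group's mean rests largely on replicate 1. The share of Lox was 68.5%, 73.4% and 74.7% against 41.9%, 67.5% and 69.3%, of which only 69.3% lay within the control range.

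The order depends on the lengths used. With the longest GENCODE M21 transcript of each gene, a choice made after the data were seen, the control shares of Loxl2 and Loxl3 were 6.20% and 6.94%, and those of Loxl1 and Loxl4 were 2.52% and 3.28%, so both neighbouring pairs changed places. In the labelled group Loxl2 stayed above Loxl3 (15.1% and 9.85%), while Loxl1 and Loxl4 changed places there too (0.483% and 0.511%). The labelled share of Loxl2 was thus 27.3% with the authors' lengths and 15.1% with those of GENCODE. With the authors' lengths the spread of the shares over control libraries did not overlap within either pair. The control FPKM implied 2.68 kb for Loxl2, against 5.32 kb in GENCODE, and 6.98 kb for Loxl4, against 3.74 kb. Of the rat-style symbols that the counts carry, 650 begin with RGD. Mouse reads lost unevenly on gene models with such symbols could distort comparisons between genes. Whether reads were lost was not tested.

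**Figure D3:**
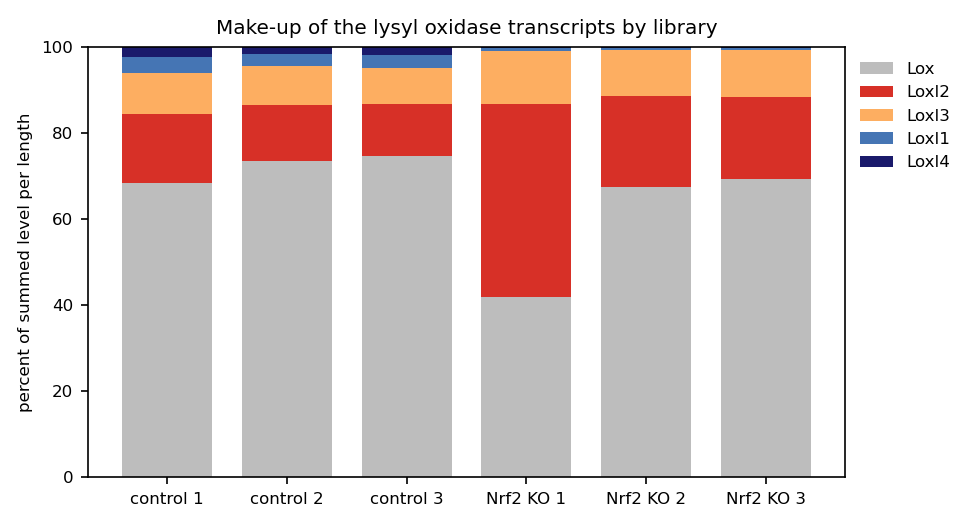
Percent of the summed lysyl oxidase level per length (y axis) taken by each of the 5 genes in each library (x axis). The bands of Loxl1 and Loxl4 shrink in all 3 libraries labelled Nrf2 KO, and Nrf2 KO replicate 1 differs from the other 2 by its large Loxl2 band, 44.9% against 21.1% and 19.2%.

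Of the 10 genes, 9 passed the count filter and 6 passed a threshold of 0.05 in edgeR's test adjusted over all genes, 3 of them higher (Fbn1, Loxl2 and Loxl3) and 3 lower (Eln, Loxl1 and Loxl4). Of all 14618 tested genes 8.28% passed, 4.83% higher and 3.45% lower. Because this contrast chose the members, nothing is read from their count. The share of all tested genes whose groups did not overlap was not computed. Nothing is therefore read from groups that lay apart, in the members or in the genes below. With the replicate number as a block the members' counts were again 3 and 3, beside 18.3% of all genes. Without both replicate 1 libraries they were 4 and 3, beside 46.1%, the added gene being Lox. The median log2 fold change of the 9 genes was 0.21, and of all tested genes 0.04. Fbn1 and Loxl4 passed in each of the 15 alternative fits. Loxl1 missed without control replicate 3, Eln and Loxl2 missed without control replicate 1, 2 or 3, and Loxl3 missed in 4 fits, those lacking control replicate 1, control replicate 3, Nrf2 KO replicate 2 or Nrf2 KO replicate 3.

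The spread of the members within groups was set beside that of all tested genes. The median coefficient of variation of all tested genes was 14.6% in the control group and 28.6% in the labelled group. Loxl1 (3.69% and 11.8%), Loxl3 (9.96% and 8.62%), Loxl4 (9.71% and 15.8%) and Fbn1 (11.6% and 24.2%) were below both medians. Eln (9.15% and 31.4%) and Loxl2 (7.42% and 32.1%) were below the control median but above the labelled one. At low counts, Fbln1 (31.6% and 53.9%) was above both, and Fbln5 was at 51.0% and 1.16%. Because this contrast chose the members, their spread is a description. Lox was at 14.6% in the control libraries and 38.1% in those labelled Nrf2 KO.

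Other genes of the pathway, which the choice of members did not use, were listed by function with earlier results of these data known. Of 55 such genes, 42 had enough counts, of which 9 were higher and 2 lower in the labelled group. Their median log2 fold change was 0.55, beside 0.04 for all tested genes, and 30 of the 42 values were positive. These numbers moved with the libraries: leaving out Nrf2 KO replicate 1 gave 17 higher and 4 lower, beside 30.2% of all tested genes, and leaving out replicate 1 of both groups gave 24 and 6, beside 46.1%. Calls over all genes thus rose in the same fits. Leaving out 1 of the other 5 libraries gave 3 to 6 higher, fewest without control replicate 3, and 1 to 2 lower. The share of all genes called in those fits was 2.09%, 2.02% and 1.3% without control replicate 1, 2 and 3, and 2.53% and 2.56% without Nrf2 KO replicate 2 and 3. Adjusted p-values below are from edgeR over all 14618 genes, and levels are mean ± SD of 3 libraries. The shares of all genes with a positive value, or with an unadjusted p under 0.05, were not computed. Nothing is therefore read from counts of positive values or of unadjusted p-values.

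Among 12 tested microfibril genes, 4 were higher and 0 lower by edgeR (4 and 0 also at an unadjusted p under 0.05). Ltbp1, which anchors latent TGF-beta to microfibrils, was at 159.2 ± 16.9 CPM and rose to 485.3 ± 126.8 CPM (log2 fold change 1.61, SE 0.25, adjusted p = 0.0156). Emilin1, a glycoprotein at the elastin and microfibril interface, rose from 116.6 ± 12.8 to 272.3 ± 59.1 CPM (1.22, SE 0.22, adjusted p = 0.0233). Adamtsl3 and the protease gene Adamts6 rose by 1.30 (SE 0.21) and 1.53 (SE 0.26) on the log2 scale. Fbn2, the other fibrillin, was at 8.18 ± 2.82 and 8.19 ± 4.05 CPM. Of the other latent TGF-beta binding proteins, Ltbp2 was at 306.2 ± 55.3 and 227.6 ± 107.6 CPM. Ltbp3 was at 154.4 ± 19.8 and 151.2 ± 55.5 CPM, and Ltbp4 at 91.0 ± 3.25 and 68.8 ± 12.5 CPM. None of these passed (edgeR adjusted p = 0.522, 0.965 and 0.206). The median of the 12 genes was 0.62 and turned to -0.16 without Nrf2 KO replicate 1. In that fit 4 were higher and 1 lower, beside 30.2% of all tested genes. None of the 12 passed by edgeR when any 1 control library or Nrf2 KO replicate 2 was left out. Without Nrf2 KO replicate 3, 2 passed. Without both replicate 1 libraries 4 were higher and 3 lower, beside 46.1% of all tested genes. Thsd4 had 0 counts, and Mfap2, Mfap4, Mfap5, Emilin2 and Adamtsl2 had too few to test.

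Of the 5 other fibulin family genes, Hmcn1 and Efemp2 could be tested. Hmcn1, the large fibulin hemicentin-1, had 2, 3 and 2 counts in the controls, against 203, 337 and 200 in the KO-labelled libraries (adjusted p = 0.00104). The groups were far apart. Efemp2, which recruits Lox to tropoelastin, was at 64.2 ± 10.3 and 97.2 ± 43.2 CPM (adjusted p = 0.322), so unlike the 3 fibulin members it was well covered. Per length, the authors' deposited table gives Efemp2 an FPKM of 33.6 in the control and 51.0 in the labelled group.

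Genes that activate lysyl oxidases or supply their copper gave calls in both directions, 1 higher and 2 lower of 9 tested. With the replicate block they were 1 and 3, beside 18.3% of all tested genes. Postn, a matricellular protein that supports cleavage of the Lox precursor, had 5, 0 and 5 counts in the controls, against 303, 1584 and 1239 in the KO-labelled libraries (adjusted p = 0.00588). Bmp1, the protease that cuts that precursor, was at 203.4 ± 36.6 and 332.0 ± 162.1 CPM (adjusted p = 0.291). Adamts2, a procollagen protease that also trims Lox, was at 8.36 ± 1.38 CPM and fell to 0.404 ± 0.408 CPM (log2 fold change -4.43, SE 0.76, adjusted p = 0.0217). Its counts in the labelled libraries were few, at 27, 4 and 11. Atox1, the chaperone that hands copper to the secretory pathway, fell from 18.6 ± 5.06 to 1.00 ± 0.206 CPM (-4.20, SE 0.31, adjusted p = 0.00232). The pump it serves, Atp7a, was at 43.1 ± 9.45 and 37.5 ± 11.5 CPM, and the importer Slc31a1 at 23.0 ± 6.28 and 18.9 ± 5.38 CPM. Copper content and lysyl oxidase activity were not measured.

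Among 7 tested elastin-degrading proteases and their inhibitors, Mmp9, a gelatinase, was the 1 higher and none was lower (2 and 1 at an unadjusted p under 0.05). It had 21, 17 and 18 counts in the controls, against 37, 131 and 141 in the KO-labelled libraries (adjusted p = 0.0290). Of 9 receptor genes for elastin or microfibrils, all 9 fitted values were positive and 1 passed (5 at an unadjusted p under 0.05). Without Nrf2 KO replicate 2, 8 of the 9 values were positive. Without Nrf2 KO replicate 1, 5 of the receptor genes passed, beside 30.2% of all tested genes. Without both replicate 1 libraries 8 did, beside 46.1%. Itga8, an integrin subunit, was at 0.167 ± 0.0848 CPM and rose to 2.86 ± 0.311 CPM (log2 fold change 4.09, SE 0.42, adjusted p = 0.00442). Among the 3 TGF-beta ligands, Tgfb2 rose from 45.7 ± 5.31 to 148.0 ± 23.7 CPM (1.70, SE 0.18, adjusted p = 0.00529). Tgfb3 was at 57.7 ± 12.2 and 125.5 ± 35.5 CPM (adjusted p = 0.0632), and Tgfb1 at 76.1 ± 9.30 and 73.7 ± 33.6 CPM (0.961). With the replicate block, the protease, receptor and ligand lists each had 2 higher and 0 lower, beside 18.3% of all tested genes. In the fits with 1 library left out, Hmcn1, Postn, Itga8 and Atox1 passed in 6 of 6 and Tgfb2 in 5. Adamts2, Adamts6 and Adamtsl3 passed in 2 and Ltbp1, Emilin1 and Mmp9 in 1.

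**Figure D4:**
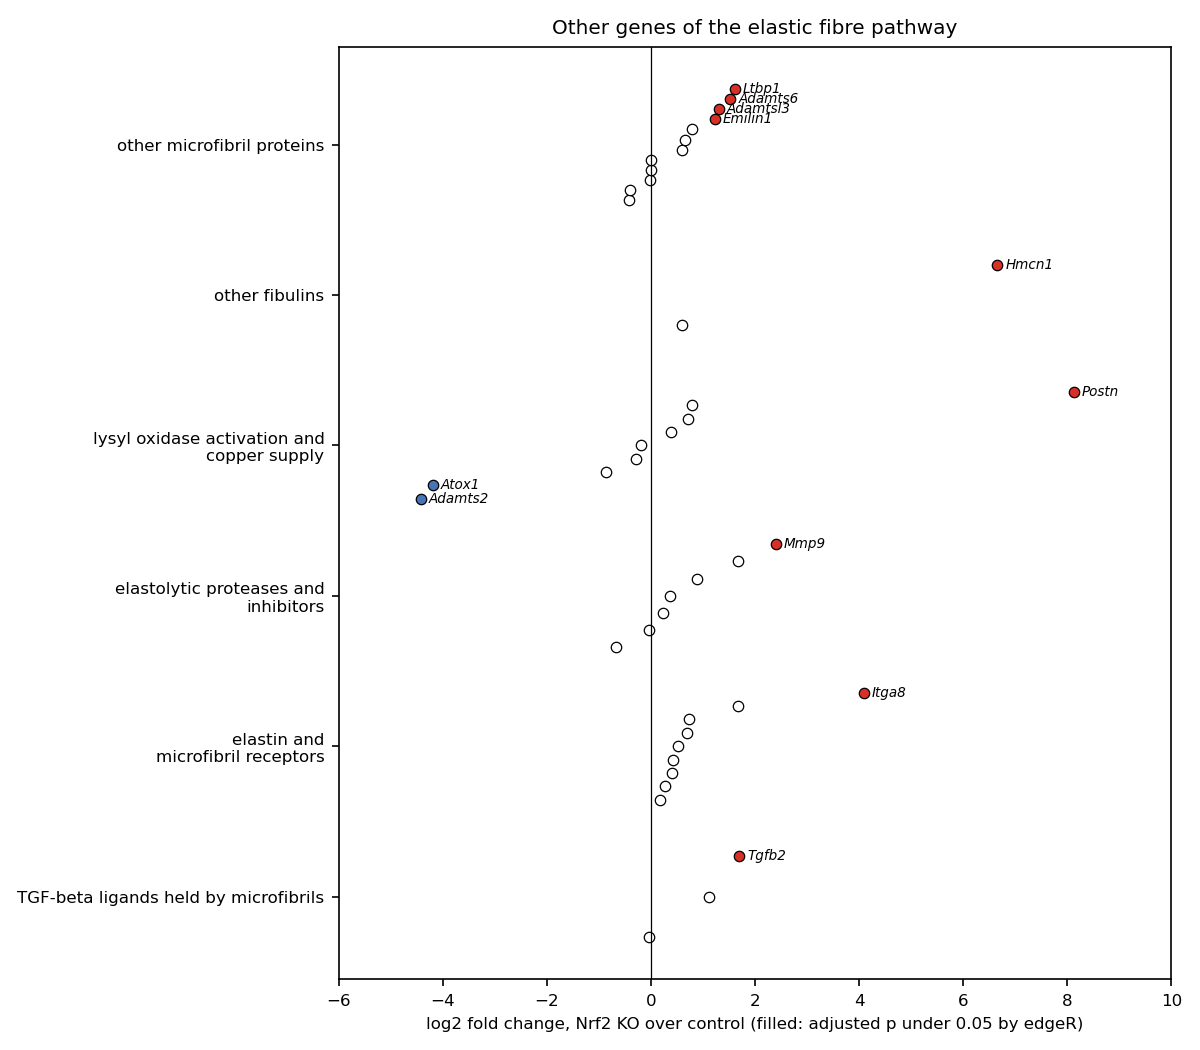
Log2 fold change, KO-labelled over control (x axis) for the 42 tested pathway genes outside the 10 members, by list (y axis; vertical offsets only separate the points). Filled points are the 9 genes called higher and 2 called lower at an adjusted p under 0.05, and open points did not pass.

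Fibroblasts and smooth muscle make elastic fibres in many tissues, so their markers were read beside these genes. Over all tested genes edgeR called 4.83% higher and 3.45% lower, the shares to set beside the calls in each marker list. Of 10 fibroblast markers 9 were tested, 4 higher (among them Col1a2, Thy1 and Pdgfra) and 1 lower (Twist2), and Dcn was near 0. Their summed level ran from 12380 to 12570 CPM in the control libraries and from 10390 to 13180 CPM in those labelled Nrf2 KO, and was mostly Vim and Col3a1. These were at 6111 ± 558.5 and 4452 ± 343.3 CPM in the controls, against 4060 ± 581.2 and 2821 ± 141.4 CPM, lower in every labelled library but not past the threshold (edgeR adjusted p = 0.160 and 0.0920). With DESeq2, 4 fibroblast markers were higher and 3 lower, beside 1420 higher and 1103 lower of 17299 genes. Of 8 smooth muscle markers 5 were tested, with Tagln and Smtn higher and Des lower. Their sum ran from 276.8 to 293.0 CPM against 466.7 to 551.2 CPM, while Myocd had 0 counts and Acta2 and Cnn1 were below 1 CPM in every library. The sum was mostly Pdgfrb (142.0 ± 13.6 against 182.2 ± 62.9 CPM, edgeR adjusted p = 0.467) and Smtn (118.2 ± 8.35 against 241.8 ± 2.26 CPM). Tagln was at 2.15 ± 0.346 against 51.7 ± 28.8 CPM. Myh11 was at 19.6 ± 3.34 against 20.75 ± 11.57 CPM (edgeR adjusted p = 0.933). Acta2, too low to test, was at 0.0490 ± 0.0512 against 0.499 ± 0.387 CPM. Cnn1, also too low, was at 0.107 ± 0.0652 against 0 CPM. Of 8 endothelial markers, summing to 2.60 to 3.08 against 1.51 to 2.75 CPM, Kdr and Tie1 were at 0. Of the 3 tested, Erg was higher (0.0322 ± 0.0281 against 0.852 ± 0.424 CPM). Tek (1.33 ± 0.492 against 0.462 ± 0.112 CPM) and Vwf (1.341 ± 0.217 against 0.603 ± 0.237 CPM) were lower in every labelled library without passing (edgeR adjusted p = 0.0730 and 0.124). Of 8 epithelial markers, summing to 0.922 to 1.91 against 5.44 to 7.79 CPM, Krt8, Krt18 and Esrp1 were at 0. Krt7, the only 1 tested, was higher and made up most of the sum (1.14 ± 0.392 against 6.38 ± 1.13 CPM). Cdh1, too low to test, was lower in every labelled library (0.206 ± 0.119 against 0.0162 ± 0.0281 CPM). Of 10 hair cell markers 2 were tested, with Myo7a higher and Myo6 not past the threshold (edgeR adjusted p = 0.460). Espn, too low to test, was at 0.182 ± 0.111 against 0.0460 ± 0.0488 CPM. Of 10 supporting cell and prosensory markers 6 were tested, with Fst, Sox9 and Gata3 higher and 0 lower. Jag1, Fgfr3 and Cdkn1b did not pass, at log2 fold changes of 0.57, -0.34 and -0.32. Lgr5, too low to test, was at 0.105 ± 0.0689 against 0.535 ± 0.535 CPM. The part of these markers in the members' values was not tested, and in bulk RNA fewer cells of a type and less RNA per cell cannot be told apart.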

How the data were processed

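Poly(A)-selected RNA of 6 libraries was sequenced, and the authors deposited raw counts per gene symbol and library, whole numbers with unequal totals. The submitters' processing notes name fastp, FastQC, HISAT2, DESeq2 1.34.0 and the build hg18, with no role for each. Which counter, strand setting and annotation were used is not stated. The authors' second deposited table holds FPKM, 1 value per group. For 90.8% of 14593 genes its ratio between groups lay within 5% of that of the mean CPM, so it is no independent measure. There were 0 columns from other samples.

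The test was that of edgeR 4.0.16 under R 4.3.3 on the counts (filterByExpr with a minimum count of 10 and total of 15, TMM scaling, robust quasi-likelihood fit, two-sided, Benjamini-Hochberg over 14618 genes, threshold 0.05). The SE is the log2 fold change divided by the square root of F. The code was tested on simulated data. Alternatives were DESeq2 1.42.0, limma-voom 3.58.1, other scalings and filters, the replicate block, and fewer libraries. Deviations from group means correlated at 0.754, 0.696 and 0.310 between libraries of the same number, all above 0.1, which met the rule for pairs, although the labels state none and control 2 with Nrf2 KO 3 gave 0.539. All values are from the fit without the block unless the block is named. No libraries were near-identical (smallest chi-square per degree of freedom 12.2). Motifs were searched in RefSeq windows of GRCm38.p6. The members and lists were chosen with earlier results of these data known. Named were all 10 members, the target, up to 4 called genes per pathway list and up to 3 per marker list. Other genes named, such as Fbn2, Efemp2, Bmp1, Atp7a, Slc31a1, Tgfb1, Tgfb3, Vim, Col3a1, Tek, Vwf and Htra2, were chosen after their values were seen. So were Myo6, Espn, Jag1, Fgfr3, Cdkn1b, Lgr5, Cdh1, Myh11, Pdgfrb, Acta2, Cnn1, Ltbp2, Ltbp3 and Ltbp4.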

Additional observations from a re-analysis of the deposited data

How the results depend on the processing

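The 3 higher and 3 lower calls among the members held under DESeq2, limma-voom, the 3 other scalings, both other filters and the replicate block. Over all tested genes DESeq2 called 1420 higher and 1103 lower of 17299, and limma-voom 707 and 546 of 14618. With 1 library left out the members' calls ranged from 1 to 4 higher and from 1 to 3 lower. Calls over all tested genes ranged from 1.3% to 30.2% in those fits. The 9 higher and 2 lower calls of the other pathway genes ranged in those fits from 3 to 17 and from 1 to 4, with the highest counts without Nrf2 KO replicate 1. Without both replicate 1 libraries they were 24 and 6, beside 46.1% of all tested genes. With the replicate block they were 12 and 3, beside 18.3%. With DESeq2 they were 12 and 2 of 47 tested, where calls over all genes were also more than in the main fit. The cause was not tested. Neither the 6 called members nor the 11 called pathway genes changed direction in any of the 15 alternative fits. Transcript lengths from RefSeq were not run, and GENCODE lengths were used instead. Low counts limit Eln, Fbln1, Fbln2 and Fbln5, in the control group Hmcn1, Postn, Itga8, Mmp9 and Erg, and in the labelled group Adamts2.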
